A study of Mus musculus with 12 samples.

Results

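Expression of all genes was compared between mouse embryos at the late blastocyst stage and embryos at the early blastocyst stage, with embryos of both siRNA arms pooled. These are 8 of the 12 libraries of the study, 4 per stage, chosen by their stage labels, and the comparison covers the 10762 genes whose mean over the 8 libraries reached 1 deposited unit, which is 3.582 CPM (a gene's share of the reads of its library, scaled to a common total). The embryos were of the outbred CD1 stock. All of them, controls included, had been injected as zygotes with GFP mRNA together with an siRNA, either a negative control siRNA or an siRNA against Tdgf1, the gene of the Nodal co-receptor Cripto. Each of the 4 groups (early or late blastocyst, control or Tdgf1 siRNA) holds 2 libraries, numbered 1 and 2. No uninjected embryos are among these samples, how many embryos went into each library is not given, and nothing says that the 2 libraries of a group came from separate injections. The p-values therefore measure the spread between these libraries, which may be technical. They count the 4 libraries of a stage as independent samples, and same-numbered early libraries were alike, so the p-values may be too small.

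The blastocyst is a hollow ball of cells. Its outer layer, the trophectoderm, is an epithelium that pumps fluid into the cavity and later attaches to the uterus and forms the placenta. Inside lies the inner cell mass, which parts into the epiblast, the source of the body, and the primitive endoderm, which covers the epiblast and lays down basement membrane. As the blastocyst matures these lineages become distinct and the embryo prepares to implant. In RNA from whole embryos, more cells of a type and more RNA per cell cannot be told apart.

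The 8 libraries held 10908928 to 13770264 reads, so that 3 reads, as many as a count of 0 leaves possible, stood for 0.218 to 0.275 CPM (counting error only). Krt8 and Gata3 of trophectoderm, Pou5f1 of the inner cell mass and Gata6 of the primitive endoderm list were present in all 8 libraries. Of primitive endoderm markers, Gata6, Pdgfra, Dab2 and Lrp2 averaged 243, 23.7, 511 and 542 CPM in the early libraries. Gata4 and Sox17 averaged 0.941 and 1.675 CPM there. These levels do not show whether early embryos held primitive endoderm cells. Along the first principal component, with 74.0% of the variance, the stages were apart. Within the early stage the libraries split by number, with the control and the Tdgf1 siRNA library at -23.96 and -26.58 for replicate 1 and at -47.16 and -44.44 for replicate 2. Among late blastocysts, Tdgf1 siRNA replicate 1 stood at 28, nearer to the early embryos than the 34.8 to 42.4 of the others. Counts below are therefore repeated with the replicate 1 early libraries alone and without that late library, and are given where they move by over 1.5 times. Of 14 markers of cumulus and granulosa cells 2 passed the filter. Serpine2 rose from a mean of 18.7 to 85.5 CPM, and Amhr2 fell from 16.99 to 5.13 CPM. The summed level of the list went from 23.3 to 49.96 CPM in early to 78.5 to 101.6 CPM in late libraries. The defining genes Has2, Ptgs2 and Fshr averaged at most 0.0657 CPM at either stage. Of 17 markers of blood and reproductive tract 4 passed the filter, with Vim higher, Cd74 and Cd68 lower (1 of these with the early replicate 1 libraries alone) and Pecam1 without a call, and summed levels of 57.0 to 79.8 CPM in early and 47.7 to 62.2 CPM in late libraries. Hbb-bs, Hbb-bt and Foxj1 were at 0 in all 8. The part of such cells in the results was not tested. Tdgf1 itself is described with the epiblast genes.

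Values per library are given in the order control replicate 1, Tdgf1 siRNA replicate 1, control replicate 2, Tdgf1 siRNA replicate 2. Means carry the SD over the 4 libraries of a stage (n = 4). Log2 changes are late minus early on the log2(value + 1 deposited unit) scale with siRNA arm as a covariate, which understates the change of low genes, and adjusted p-values are from limma with Benjamini-Hochberg adjustment over the 10762 genes at a threshold of 0.05. "Rose" and "fell" refer to genes past that threshold.

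From the early to the late blastocyst, 3145 genes rose (29.2%) and 1958 fell (18.2%). The values of the 4 late libraries did not overlap those of the 4 early libraries in 4749 genes (44.1%), so a lack of overlap does not by itself set a gene apart. Changes of over 4-fold on this scale (log2 size above 2) numbered 135 upward and 38 downward. The split between rises and falls depended on scaling. The median log2 change of all genes was 0.11 as deposited and -0.04 after TMM scaling (a trimmed mean that sets the bulk of genes level), which called 2357 genes up (21.9%) and 2786 down (25.9%). Of the 5103 genes called as deposited, 4315 had the same call after TMM scaling, 788 lost it and 0 had the opposite one. The share of a gene group that rose or fell is to be read against the 29.2% and 18.2% of all genes, and a group near these shares is not set apart by its counts. Medians of gene groups are given relative to the median of all genes, and counts after TMM scaling stand beside the main counts. With the early replicate 1 libraries alone, 2396 genes rose and 1849 fell. With the early replicate 2 libraries alone, the numbers were 3796 and 1955. Averaging same-numbered libraries of both arms to 1 sample gave 2066 rises and 1198 falls, so counts of gene groups are smaller in that fit too.

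**Figure D1:**
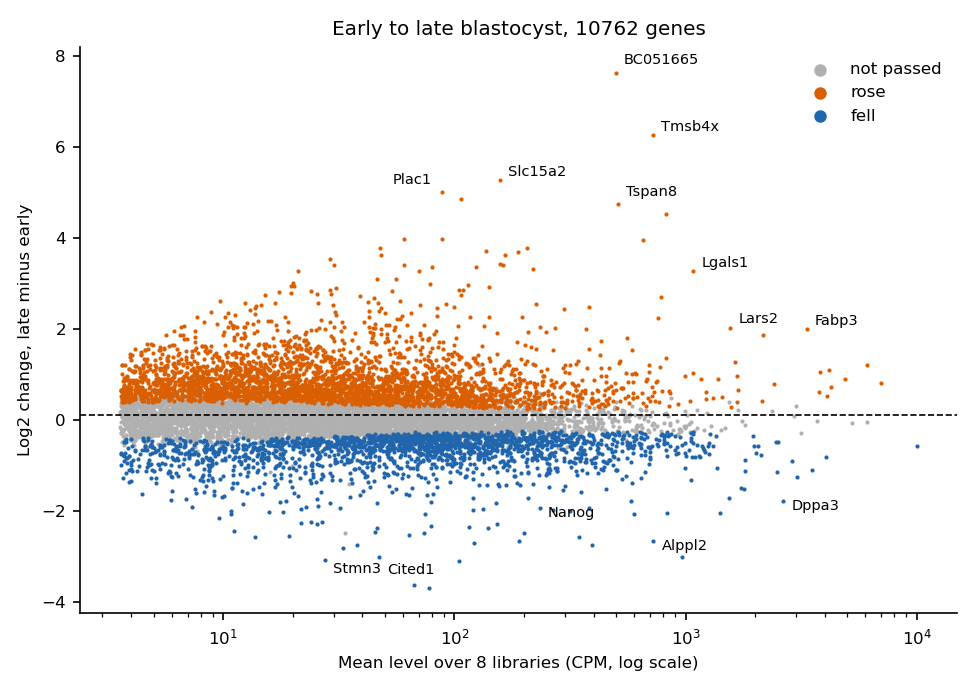
Log2 change from early to late blastocyst (vertical axis) against the mean level over the 8 libraries (horizontal axis, CPM, log scale) for the 10762 genes tested. Orange points rose (3145 genes) and blue points fell (1958 genes) at an adjusted p under 0.05, and grey points did not pass. The dashed line is the median of all genes, 0.11.

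Among the 12 largest rises were Tmsb4x of actin, the transporter Slc15a2 and the placental gene Plac1. BC051665 went from 0.988 ± 0.858 to 997 ± 506 CPM, the largest change among named genes (log2 change 7.63, SE 0.32, adjusted p = 8.76e-08). Tmsb4x, which encodes thymosin beta 4, a protein that holds actin monomers, lies on chromosome X, 167207093 to 167209315, minus strand. It stood at 51.3, 30.7, 4.65 and 4.21 CPM in the early and 1419, 1318, 1479 and 1488 CPM in the late libraries. Every late library exceeded every early one, which the rule for naming the largest rises required. The early replicate 2 libraries were the lowest (log2 change 6.26, SE 0.51, adjusted p = 5.22e-06). Slc15a2, a proton-coupled peptide transporter (chromosome 16, 36750177 to 36784962, minus strand), stood at 12.5, 6.32, 0.944 and 2.22 CPM in the early and 343, 243, 338 and 311 CPM in the late libraries (log2 change 5.27, SE 0.31, adjusted p = 1.28e-06). Plac1, an X-linked gene needed for normal placental growth (chromosome X, 53069995 to 53240111, minus strand), was low in early embryos and stood at 2.397, 1.39, 1.16 and 2.602 CPM in the early and 227, 124, 161 and 188 CPM in the late libraries. Its stage means were 92.7-fold apart (log2 change 5.01, SE 0.19, adjusted p = 4.30e-08). The tetraspanin Tspan8 stood at 59.9, 57.5, 11.5 and 23.96 CPM in the early and 1166, 645, 1084 and 1017 CPM in the late libraries (log2 change 4.75). The other 7 of the 12 largest rises were BC053393 (log2 change 4.53), Dmkn (3.98), the glutathione transferase Gsta1 (3.97), the alcohol dehydrogenase Adh1 (3.96), the ectonucleotide pyrophosphatase Enpp1 (3.78), Wbp5 (3.78) and Ndrg1 (3.69).

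The largest falls among named genes were in Stmn3, Isyna1 and Cited1. Stmn3, a stathmin that binds tubulin (chromosome 2, 181306459 to 181314500, minus strand), stood at 47.2, 50.3, 49.02 and 60.4 CPM in the early and 1.93, 4.89, 4.09 and 1.41 CPM in the late libraries (log2 change -3.08, SE 0.19, adjusted p = 1.57e-06). Isyna1, which makes inositol phosphate from glucose 6-phosphate, stood at 1494, 1203, 2259 and 1926 CPM in the early and 157, 216, 195 and 255 CPM in the late libraries (log2 change -3.02, SE 0.19, adjusted p = 1.57e-06). The transcriptional cofactor Cited1 (chromosome X, 102247381 to 102252181, minus strand) stood at 74.4, 61.9, 103 and 107 CPM in the early and 5.04, 9.51, 9.796 and 5.82 CPM in the late libraries (log2 change -3.01, SE 0.21, adjusted p = 1.89e-06). For each of the 3 genes all late libraries lay below all early ones, which the rule for naming the largest falls required. Obox6, of a homeobox family active in oocytes and early embryos, went from 62.3 ± 50.1 to 3.86 ± 0.494 CPM (log2 change -2.81). The alkaline phosphatase Alppl2 stood at 773, 693, 1850.2 and 1738 CPM in the early and 161, 277, 127 and 174 CPM in the late libraries, and its early level was higher in the replicate 2 libraries. The other 7 were Actn2 (log2 change -2.74), Gpd1l (-2.74), Gulo, which makes the last step of vitamin C synthesis (-2.71), the pyridoxal kinase Pdxk (-2.66), Plk5 (-2.58), Pemt, which methylates phosphatidylethanolamine (-2.57), and Fam46c (-2.55).

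Among epiblast and pluripotency genes the core factors parted. Of 31 members tested, 7 rose and 9 fell (after TMM scaling 5 and 13), beside the 29.2% and 18.2% of all genes. The median log2 change lay -0.25 from that of all genes. Nanog, a homeobox factor of pluripotent cells (chromosome 6, 122707489 to 122714633, plus strand), stood at 292, 354, 427 and 420.2 CPM in the early and 85.1, 115, 80.7 and 95.9 CPM in the late libraries (log2 change -1.94, SE 0.13, adjusted p = 1.89e-06). Pou5f1, which encodes Oct4 (chromosome 17, 35506018 to 35510772, plus strand), stood at 410.1, 454, 310.3 and 337 CPM in the early and 108, 148, 133 and 147 CPM in the late libraries (log2 change -1.47, SE 0.13, adjusted p = 8.90e-06). Dppa2, a nuclear protein of pluripotent cells, went from 909 ± 108 to 375 ± 76.1 CPM (-1.28 on the log2 scale). For these 3 genes the stages did not overlap, which held, in either direction, for 44.1% of all genes tested. Sox2, the partner of Oct4, was low and variable, at 16.9, 24.8, 4.14 and 10.5 CPM in the early and 11.8, 10.6, 6.17 and 14.8 CPM in the late libraries, and its groups overlapped (log2 change -0.17, SE 0.31, adjusted p = 0.674). Its early level was higher in replicate 1, and against those libraries alone it was called lower (log2 change -0.77, adjusted p = 0.0117). Fgf4, the epiblast's signal to primitive endoderm, stood at 5.71 ± 1.19 to 6.04 ± 1.54 CPM (log2 change 0.05, SE 0.17, adjusted p = 0.838), and Klf4 at 46.6 ± 14.1 to 37.5 ± 10.3 CPM (log2 change -0.28, SE 0.21, adjusted p = 0.274), neither with a call. Esrrb fell (log2 change -0.53, adjusted p = 0.0284), a call lost without any 1 library other than early control replicate 2 or early Tdgf1 siRNA replicate 2 (adjusted p 0.015 to 0.0882 with 1 library left out).

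The 7 rises in this group were in Spp1, Tdgf1, Bmp4, Zscan10, the DNA methyltransferase Dnmt3b, Dppa5a and Sall4. Spp1, which encodes the secreted protein osteopontin, stood at 51.3, 27.8, 6.17 and 24.6 CPM in the early and 208, 209, 202 and 185 CPM in the late libraries (log2 change 2.96). Tdgf1, the siRNA target (chromosome 9, 110939603 to 110946158, minus strand), stood at 21.7, 9.27, 13.1 and 15.2 CPM in the early and 97.3, 49.5, 84.6 and 70.8 CPM in the late libraries (log2 change 2.11, SE 0.18, adjusted p = 7.88e-06). The late libraries were all above the early ones, and the Tdgf1 siRNA libraries were below the same-numbered controls in 3 of 4 cases, the exception being early replicate 2. Bmp4, a ligand of the BMP pathway, was near the floor in early embryos and stood at 2.23, 1.15, 0.218 and 0.689 CPM in the early and 11.6, 9.34, 11.96 and 16.6 CPM in the late libraries (log2 change 1.78). Dnmt3b went from 112 ± 40.2 to 277 ± 37.4 CPM (log2 change 1.34) and Zscan10, a zinc finger protein of pluripotent cells, from 4.01 ± 2.24 to 21.6 ± 10.4 CPM (1.67). The call of Dppa5a (log2 change 0.52, adjusted p = 0.00982) was lost after TMM scaling (adjusted p = 0.16). So was that of Sall4 (0.31, adjusted p = 0.0365), which after TMM scaling had an adjusted p of 0.343, and which was also a call lost without any 1 library other than early Tdgf1 siRNA replicate 1, late Tdgf1 siRNA replicate 1 or late control replicate 2 (adjusted p 0.0268 to 0.144 with 1 library left out).

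Most genes of the primitive endoderm list rose. Of 18 members tested, 13 rose and 2 fell, with the same counts after TMM scaling, and the median log2 change was 1.22 above that of all genes. Sox17, an endoderm transcription factor (chromosome 1, 4490931 to 4497354, minus strand), stood at 1.16, 0.8205, 0.436 and 4.29 CPM in the early and 45.3, 23.6, 44.6 and 40.5 CPM in the late libraries (log2 change 3.02, SE 0.25, adjusted p = 5.55e-06). Gata4, which acts after Gata6 in this lineage (chromosome 14, 63198922 to 63271692, minus strand), stood at 0.661, 1.31, 0.871 and 0.919 CPM in the early and 23.5, 7.86, 19.7 and 26.4 CPM in the late libraries (log2 change 2.25, SE 0.26, adjusted p = 4.41e-05). In both genes late Tdgf1 siRNA replicate 1 was the lowest late library and still above every early one. Gata6, the earliest of these factors, was already abundant and stood at 207, 259.8, 257 and 248 CPM in the early and 217, 284, 175 and 245 CPM in the late libraries, with overlapping stages and no call (log2 change -0.09, SE 0.12, adjusted p = 0.555). Pdgfra, a receptor on primitive endoderm cells, went from 23.7 ± 5.25 to 56.6 ± 7.56 CPM (log2 change 1.15), the FGF receptor Fgfr2 from 63.5 ± 19.1 to 199 ± 35.8 CPM (1.62), and the lipoprotein Apoe from 163 ± 55.6 to 339.9 ± 24.3 CPM (1.13). The water channel Aqp8 stood at 7.19, 1.48, 0.145 and 0.153 CPM in the early and 22.3, 6.197, 25.9 and 24.8 CPM in the late libraries, with late Tdgf1 siRNA replicate 1 inside the early range (log2 change 2.03, and 2.36 without that library). The falls were in Cited1, described above, and in the X-linked homeobox gene Rhox5, from 57.5 ± 18.9 to 23.9 ± 8.51 CPM (log2 change -1.16). Of the list's 26 genes 8 lay below the filter: Sox7, Foxa2, Hnf4a, Bmp2, Rspo3, Fst, Ttr and Afp. Of these, Sox7 stood at 0.248, 0, 0.0726 and 0 CPM in the early and 6.33, 0.436, 4.24 and 8.03 CPM in the late libraries, and Foxa2 at 0, 0.08205, 0 and 0.0765 CPM in the early and 4.58, 0.436, 4.397 and 3.27 CPM in the late libraries, with every late library above every early one and late Tdgf1 siRNA replicate 1 the lowest late one. They were not tested.

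Receptors and adaptors by which primitive endoderm takes up proteins gave shares near those of all genes (29.2% and 18.2%), with 7 of 22 rising and 3 falling (5 and 3 after TMM scaling). Cubn, the cubilin receptor, went from 5.25 ± 1.15 to 27.6 ± 7.78 CPM (log2 change 1.79), and its partner Lrp2, or megalin, from 542 ± 118 to 970.1 ± 135 CPM (0.85). Vldlr went from 1.696 ± 1.26 to 5.99 ± 1.25 CPM (0.88). The adaptor Dab2 went from 511 ± 99.1 to 720.4 ± 84.6 CPM (log2 change 0.504), a call lost after TMM scaling (adjusted p = 0.0743). Fcgrt, the neonatal Fc receptor, fell from 13.2 ± 7.16 to 1.92 ± 0.951 CPM (-1.51), as did Rab7 (-0.38) and Picalm (-0.34). The call of Picalm was fragile, a call lost without any 1 library other than early control replicate 1 or early Tdgf1 siRNA replicate 2 (adjusted p 0.0205 to 0.101 with 1 library left out).

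Most basement membrane genes rose, laminins and type IV collagen among them. Of 25 genes for laminins, type IV collagen, nidogens and collagen processing, 21 rose and 0 fell (19 and 2 after TMM scaling, the falls being the lysyl hydroxylases Plod1 and Plod3, at -0.27 and -0.25 without a call as deposited), with a median 0.87 above all genes. The laminin chain Lama1 (chromosome 17, 67697259 to 67822647, plus strand) stood at 4.88, 2.87, 0.654 and 0.306 CPM in the early and 74.9, 27.3, 54.8 and 75.7 CPM in the late libraries (log2 change 3.402, SE 0.31, adjusted p = 9.29e-06). The early libraries of replicate 2 held it lower than those of replicate 1, and late Tdgf1 siRNA replicate 1 was the lowest late library. Its partner chains were already present in early embryos: Lamb1 went from 48.2 ± 11.9 to 130.2 ± 33.2 CPM (log2 change 1.36) and Lamc1 from 31.4 ± 5.01 to 104 ± 19.98 CPM (1.61). Col4a1 and Col4a2, the chains of type IV collagen, went from 22.5 ± 5.22 to 61.7 ± 15.6 CPM (1.32) and from 12.04 ± 4.86 to 32.7 ± 9.41 CPM (1.23). The matrix protein Sparc stood at 41.3, 32.2, 18.01 and 21.97 CPM in the early and 173, 135, 201 and 169.7 CPM in the late libraries (log2 change 2.49, SE 0.21, adjusted p = 5.55e-06). Fn1, or fibronectin, went from 19.2 ± 8.201 to 97.3 ± 15.4 CPM (log2 change 2.21).

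**Figure D2:**
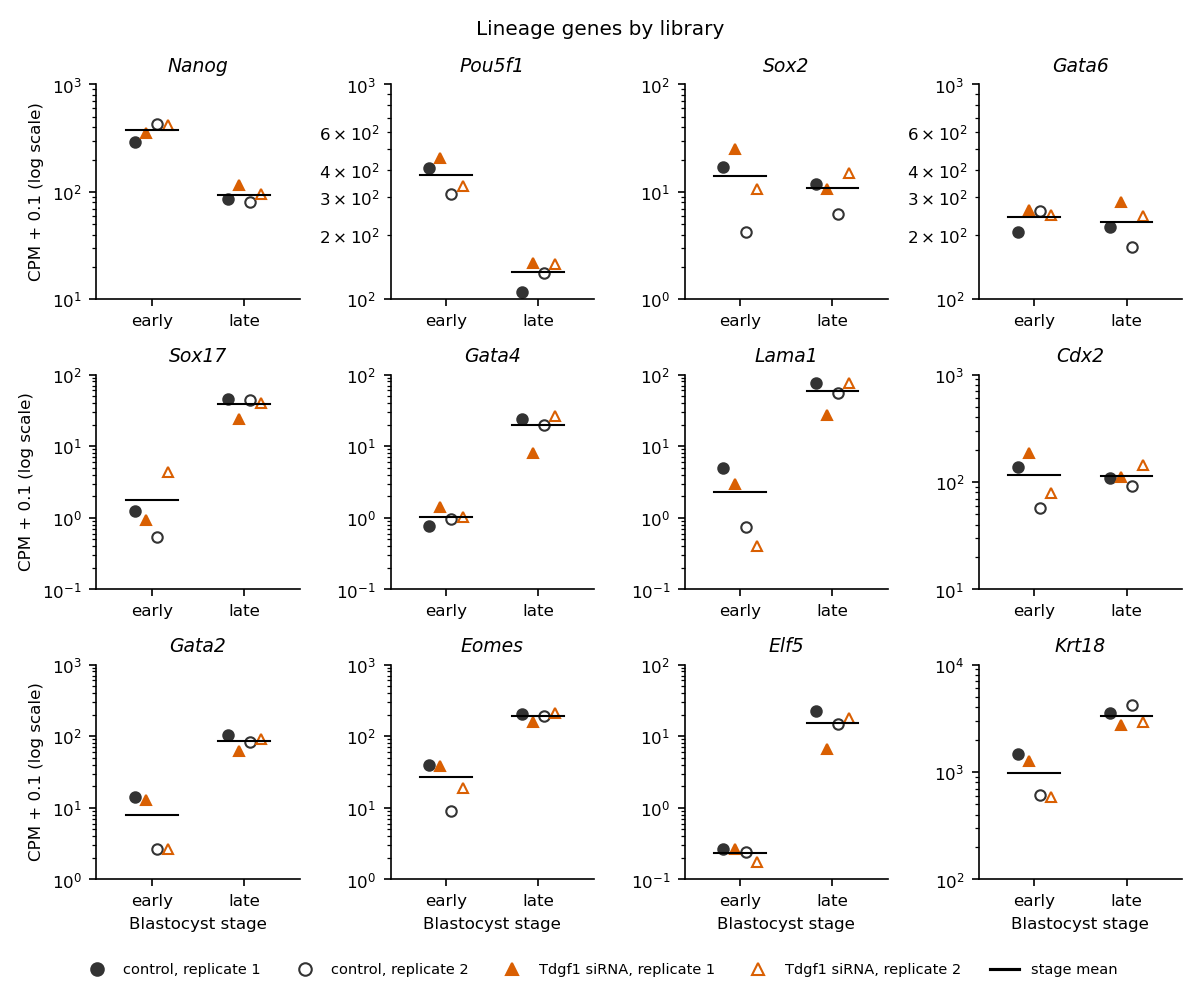
Levels of 12 lineage genes in the 8 libraries (vertical axis, CPM + 0.1, log scale). Each point is 1 library, circles for control and triangles for Tdgf1 siRNA, filled for replicate 1 and open for replicate 2, and the bar is the stage mean. Nanog and Pou5f1 lie lower in late blastocysts, Sox17, Gata4, Lama1, Gata2, Eomes, Elf5 and Krt18 lie higher, and Sox2, Gata6 and Cdx2 overlap between stages.

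Trophectoderm transcription factors did not move as one. Gata2, Eomes, Elf5 and Gata3 rose, Hand1 fell, and Cdx2 and Tfap2c gave no call. Of 23 tested, 11 rose and 3 fell (11 and 4 after TMM scaling), and 5 fell with the early replicate 1 libraries alone. Cdx2, the homeobox factor that sets up trophectoderm, stood at 139, 184, 57.3 and 79.4 CPM in the early and 108, 111, 91.6 and 143 CPM in the late libraries, with overlapping stages (log2 change 0.099, SE 0.27, adjusted p = 0.785). Its early level was split by number, so that the log2 change was -0.503 against the early replicate 1 libraries alone and 0.701 against those of replicate 2 (adjusted p = 0.00948 and 8.17e-04). Tfap2c did not pass either (log2 change -0.26, SE 0.13, adjusted p = 0.109) but was called lower after TMM scaling (adjusted p = 0.00822). Gata3 went from 210.1 ± 58.9 to 419 ± 13.5 CPM (log2 change 1.03). Its relative Gata2, a regulator of placental genes (chromosome 6, 88193891 to 88207032, plus strand), stood at 14.1, 12.6, 2.54 and 2.602 CPM in the early and 104, 62.4, 82.1 and 90.3 CPM in the late libraries (log2 change 3.09, SE 0.34, adjusted p = 2.91e-05). Eomes, which maintains trophoblast stem cells (chromosome 9, 118478212 to 118486132, plus strand), stood at 39.9, 38.8, 9.08 and 18.98 CPM in the early and 204, 159, 189.7 and 211 CPM in the late libraries (log2 change 2.84, SE 0.32, adjusted p = 3.71e-05). In both, the early replicate 2 libraries were lower than the replicate 1 libraries, and all late libraries were higher still. Elf5, a trophoblast Ets factor, was at most 0.165 CPM in early embryos, under the limit of 3 reads, and stood at 22.3, 6.55, 14.9 and 17.6 CPM in late ones (log2 change 2.27). The falls were in Hand1, a bHLH factor of giant cells, which stood at 10.3, 14.6, 25.5 and 35.2 CPM in the early and 0.642, 1.92, 0.0771 and 0.353 CPM in the late libraries (log2 change -2.43), in Rxra (-1.17) and in Tead4 (-0.41).

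Most keratin and junction genes were higher in late blastocysts, which RNA from whole embryos does not place in the trophectoderm. Of 33 keratin and junction genes 25 rose and 1 fell (21 and 1 after TMM scaling, and 0 falls without late Tdgf1 siRNA replicate 1), and the median was 0.61 above all genes. The keratin pair of simple epithelia differed in size of change. Krt18 stood at 1477, 1262, 606 and 584 CPM in the early and 3504, 2718, 4198 and 2939 CPM in the late libraries (log2 change 1.86, SE 0.27, adjusted p = 1.91e-04), and Krt8 at 1665, 1536, 715 and 792 CPM in the early and 2232, 1757, 2585 and 2117 CPM in the late libraries (log2 change 0.97, SE 0.25, adjusted p = 0.00752). For both, the early replicate 2 libraries held less than those of replicate 1. Every late library held more than any early one, beside 44.1% of all genes without overlap in either direction. The call of Krt8 was lost when same-numbered libraries of both arms were averaged to 1 sample (adjusted p = 0.0525) and in the Tdgf1 siRNA arm and the replicate 1 libraries of both stages alone. Another keratin, Krt7, went from 9.84 ± 5.604 to 74.8 ± 19.2 CPM (log2 change 2.598). The claudin Cldn3, a tight junction protein, showed the largest rise, from 7.32 ± 1.4002 to 70.4 ± 21.6 CPM (2.73), and the desmosome genes Dsc2 and Dsp rose by 2.05 and 0.703 on the log2 scale. Llgl1, of basolateral polarity, was the single fall (-0.395), a call lost without any 1 library other than early Tdgf1 siRNA replicate 2 or late control replicate 1 (adjusted p 0.0243 to 0.125 with 1 library left out).

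Pumps, channels and transporters rose in 13 of 18 cases and fell in 1 (11 and 1 after TMM scaling). Besides Slc15a2 and Aqp8, the amino acid transporter Slc38a2 stood at 10.003, 9.52, 10.3 and 12.02 CPM in the early and 95.6, 47.7, 104 and 85.9 CPM in the late libraries (log2 change 2.58, SE 0.196, adjusted p = 3.19e-06). Atp1b1, the beta subunit of the sodium pump that drives fluid into the cavity, went from 106 ± 39.8 to 239 ± 30.5 CPM (log2 change 1.21). Aqp3, a water and glycerol channel, did not pass (log2 change 0.32, SE 0.18, adjusted p = 0.174). Slc2a8, a glucose transporter, fell (-0.49), a call lost without late control replicate 2 or late Tdgf1 siRNA replicate 2 (adjusted p 0.00508 to 0.0571 with 1 library left out).

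Genes of later trophoblast rose in 21 of 27 cases and fell in 3 (20 and 3 after TMM scaling), with a median 1.28 above all genes. Behind Plac1 and Tspan8 came Ndrg1, at 72.7, 36.5, 7.63 and 8.96 CPM in the early and 446, 184, 311 and 447 CPM in the late libraries (log2 change 3.69, SE 0.51, adjusted p = 1.58e-04). The galectin Lgals3 went from 18.6 ± 7.98 to 77.9 ± 27.8 CPM (log2 change 1.88). Gja1, the gap junction protein connexin 43, fell from 468 ± 64.3 to 207 ± 69.4 CPM (-1.202) and Plet1 from 234 ± 26.8 to 158 ± 35.6 CPM (-0.57). In the wider family of galectins, annexins and S100 proteins 10 of 16 rose and 2 fell, with the same counts after TMM scaling. Lgals1 stood at 301, 189.7, 126 and 203 CPM in the early and 1866, 1456, 2206 and 2286 CPM in the late libraries (log2 change 3.27, SE 0.22, adjusted p = 1.89e-06), and Anxa3 and Anxa6 rose by 2.28 and 2.07 on the log2 scale. Lgals8 (-1.22) and Anxa7 (-0.69) fell.

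Actin cytoskeleton genes gave 29 rises and 1 fall among 35 (24 and 1 after TMM scaling, and 0 falls without late Tdgf1 siRNA replicate 1), and their summed level went from 13490 to 16820 CPM in the early libraries to 25370 to 27760 CPM in the late ones. Msn, or moesin, which ties actin to the membrane, stood at 104, 105, 32.03 and 38.3 CPM in the early and 479.6, 306, 403 and 335 CPM in the late libraries (log2 change 2.55), and the capping protein Capg at 79.9, 61.9, 33.8 and 33.3 CPM in the early and 274, 176, 194 and 226 CPM in the late libraries (2.06). In both genes the early replicate 1 libraries lay between those of replicate 2 and the late ones. The single fall was Capza1 (-0.46), a call lost without any 1 library other than early control replicate 2 or early Tdgf1 siRNA replicate 2 (adjusted p 0.012 to 0.13 with 1 library left out), and a log2 change of -0.27 to -0.60 in those fits.

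Among signalling genes, the ligands Fgf10, Bmp4 and Wnt6, the receptor Fgfr2 and the Wnt carrier Wls rose. In FGF and ERK signalling 7 of 25 genes rose and 2 fell (7 and 6 after TMM scaling, and 4 falls with the early replicate 1 libraries alone), beside the 29.2% and 18.2% of all genes. The ligand Fgf10 was at 0 to 1.41 CPM in early embryos and stood at 18.98, 7.77, 12.3 and 11.6 CPM in late ones (log2 change 1.87). The receptor Fgfr2 stood at 75.98, 83.03, 42.8 and 51.97 CPM in the early and 233, 157, 181 and 223 CPM in the late libraries (log2 change 1.62, SE 0.199, adjusted p = 6.75e-05), while Fgfr1 did not pass (log2 change 0.395, SE 0.18, adjusted p = 0.0862) but did without early control replicate 1 or late Tdgf1 siRNA replicate 2. Of the feedback genes, the ERK phosphatase Dusp6 went from 17.7 ± 6.12 to 58.8 ± 12.1 CPM (log2 change 1.58) and Spry2 from 12.5 ± 4.39 to 22.6 ± 3.19 CPM (0.74). Dusp4 did not pass (log2 change -0.49, SE 0.19, adjusted p = 0.051) but was called lower after TMM scaling (adjusted p = 0.0146) and without early control replicate 1 or late Tdgf1 siRNA replicate 1. The kinase Map2k2 (-0.76) and the adaptor Grb2 (-0.75) fell.

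Wnt pathway genes rose in 12 of 18 cases and fell in 1 (10 and 2 after TMM scaling, and 7 and 2 with the early replicate 1 libraries alone). Averaging same-numbered arms left 7 rises and 0 falls. Wls, the carrier that brings Wnt ligands to the cell surface (chromosome 3, 159839672 to 159938664, plus strand), stood at 1.901, 0.574, 0.581 and 0.0765 CPM in the early and 58.6, 21.9, 52.99 and 30.98 CPM in the late libraries (log2 change 3.28, SE 0.19, adjusted p = 1.28e-06). Dkk1, a secreted Wnt inhibitor, stood at 0.744, 1.31, 0.654 and 1.99 CPM in the early and 30.6, 17.6, 39.1 and 28.7 CPM in the late libraries (log2 change 2.74, SE 0.21, adjusted p = 3.35e-06). The ligand Wnt6 went from 6.95 ± 1.99 to 31.1 ± 7.22 CPM (log2 change 1.71). All 3 genes lay higher in every late library than in any early one, beside 44.1% of all genes without overlap in either direction. Dvl2, which relays the signal inside the cell, fell (-0.39), a call lost without any 1 library other than early control replicate 2, early Tdgf1 siRNA replicate 2 or late Tdgf1 siRNA replicate 1 (adjusted p 0.0177 to 0.0795 with 1 library left out).

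Hippo genes, which relay polarity to Yap and the Tead factors, rose in 6 of 20 cases and fell in 5 (6 and 7 after TMM scaling), shares near those of all genes (29.2% and 18.2%, or 21.9% and 25.9% after TMM scaling). Amotl2, Tead2 and the kinase Stk3 rose by 1.44, 1.14 and 0.89 on the log2 scale. Nf2, an activator of the pathway, fell from 72.6 ± 11.2 to 29.8 ± 5.698 CPM (-1.19), Frmd6 from 22.2 ± 5.36 to 11.3 ± 2.75 CPM (-0.79) and the Yap target Ctgf from 15.6 ± 3.56 to 8.87 ± 3.18 CPM (-0.63), the last a call lost without any 1 library other than early control replicate 2, early Tdgf1 siRNA replicate 2 or late Tdgf1 siRNA replicate 1 (adjusted p 0.00916 to 0.0989 with 1 library left out). Of 20 Nodal, TGF-beta and BMP genes 11 rose and 1 fell (9 and 1 after TMM scaling, and 0 falls with the early replicate 1 libraries alone). Next to Tdgf1 and Bmp4 stood Id2, a target of BMP signalling, at 423, 411, 128 and 196 CPM in the early and 1221, 1028, 1279 and 1419 CPM in the late libraries (log2 change 2.24, SE 0.31, adjusted p = 1.57e-04). Smad2 fell (-0.37), a call lost without early Tdgf1 siRNA replicate 2, late control replicate 1 or late Tdgf1 siRNA replicate 2 (adjusted p 0.022 to 0.083 with 1 library left out).

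Nuclear-encoded subunits of the respiratory chain and proteasome subunits moved in opposite directions. The respiratory chain passes electrons from NADH and succinate to oxygen and drives ATP synthase, and the proteasome degrades marked proteins. Of 79 respiratory chain subunits 66 rose and 0 fell (44 and 0 after TMM scaling), with a median 0.45 above all genes. Their summed level was 18150 to 20070 CPM in the early and 25550 to 30730 CPM in the late libraries. The largest rises were in the complex I genes Ndufs4, at 57.4, 58.3, 41.2 and 68.7 CPM in the early and 149, 149, 167 and 147 CPM in the late libraries (log2 change 1.41, SE 0.14, adjusted p = 1.48e-05), and Ndufb9, at 207, 182, 179 and 187 CPM in the early and 436, 375, 467 and 485 CPM in the late libraries (log2 change 1.201, SE 0.11, adjusted p = 8.90e-06), and in Cox7b of cytochrome oxidase, from 200.2 ± 31.4 to 472 ± 68.99 CPM (log2 change 1.22). The 13 mitochondrially encoded genes are listed at 0 in every library, so the other genome's subunits cannot be compared.

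Proteasome subunits gave 33 falls and 0 rises among 36 (34 falls after TMM scaling, and 32 with the early replicate 1 libraries alone), and a median -0.79 from that of all genes. The summed level was 16540 to 18750 CPM in early and 9959 to 12120 CPM in late libraries. Psmd11, of the regulatory lid (chromosome 11, 80428615 to 80473248, plus strand), stood at 572, 613, 559.6 and 567 CPM in the early and 214, 283, 289 and 249 CPM in the late libraries (log2 change -1.16, SE 0.11, adjusted p = 1.28e-05). Psmd3, of the same lid (chromosome 11, 98682554 to 98695979, plus strand), stood at 417, 384, 349 and 375 CPM in the early and 175, 178, 163 and 181 CPM in the late libraries (log2 change -1.11, SE 0.097, adjusted p = 7.44e-06). Psmb10, a catalytic subunit of the immunoproteasome, went from 22.3 ± 2.398 to 7.85 ± 0.979 CPM (log2 change -1.18). The 3 subunits that did not pass, named after their values were seen, were Psma3 (-0.26), Psmb9 (0.403) and Psmd10 (-0.03).

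**Figure D3:**
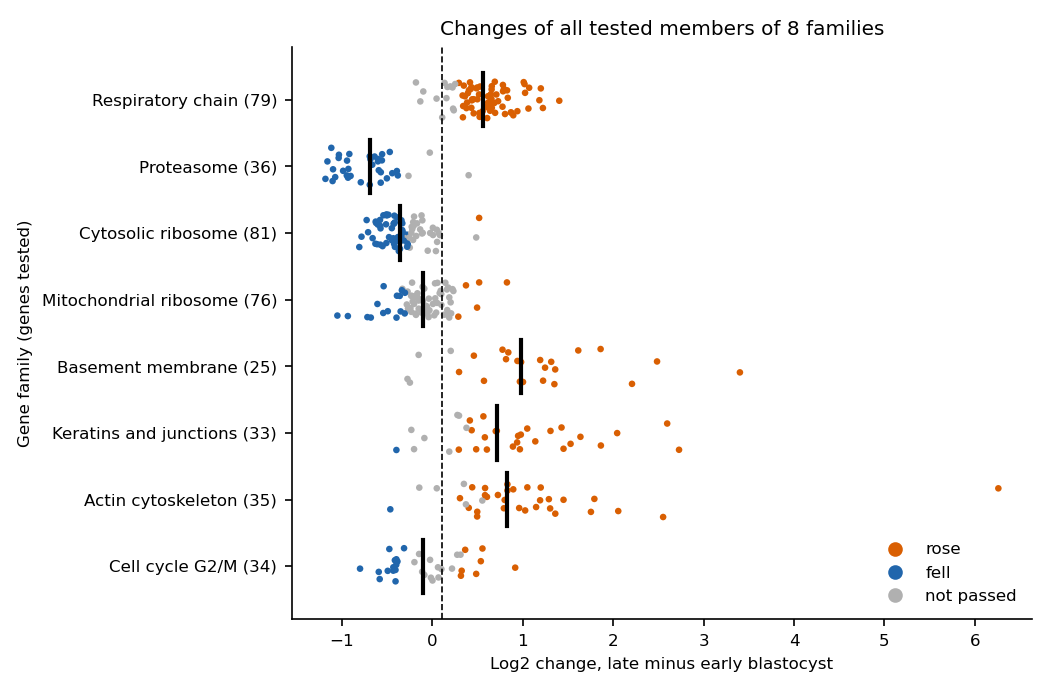
Log2 change from early to late blastocyst (horizontal axis) of every tested member of 8 gene families (vertical axis, 1 point per gene, orange rose, blue fell, grey not passed). Black ticks are family medians and the dashed line is the median of all genes, 0.11. Most respiratory chain subunits lie right of the line (66 of 79 rose) and most proteasome subunits left of it (33 of 36 fell).

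Genes of the cytosolic ribosome were lower in late embryos, with a size that depended on the early libraries used. Of 81 cytosolic ribosomal protein genes 52 fell and 1 rose (61 and 1 after TMM scaling), beside the 18.2% and 29.2% of all genes. Against the early replicate 1 libraries alone 31 fell and 2 rose, and with same-numbered arms averaged 24 fell and 1 rose. The summed level was 56320 to 64830 CPM in early and 43660 to 49090 CPM in late libraries. Rpl5 stood at 1262, 1260.3, 1584 and 1493 CPM in the early and 739, 806, 841 and 798 CPM in the late libraries (log2 change -0.81, SE 0.11, adjusted p = 1.50e-04), Rpl39l fell by 0.78 on the log2 scale and Rpl41 by 0.72. The single rise was Rps27l, a ribosomal protein-like gene that p53 induces (0.52). Ribosomal protein genes have many near-identical processed copies, and reads may have been split between them. Mitochondrial ribosomal proteins gave 15 falls and 5 rises among 76, beside the 18.2% and 29.2% of all genes. After TMM scaling they gave 29 and 3, beside 25.9% and 21.9%. The largest falls were Mrpl22 (-1.05), Mrps34 (-0.93) and Mrps18b (-0.72), and the largest rises Mrps36 (0.83), Mrpl23 (0.52) and Mrps14 (0.496). The median of this family lay -0.21 from that of all genes, and that of the respiratory chain 0.45.

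Of 37 aminoacyl-tRNA synthetases, which charge tRNAs, 8 rose and 5 fell (7 and 7 after TMM scaling), beside the 29.2% and 18.2% of all genes. Iars and Fars2 rose by 0.76 and 0.75 on the log2 scale, and Farsa (-0.69), Qars (-0.54) and Rars (-0.47) fell. Lars2, the mitochondrial leucine enzyme, stood apart at 653, 639, 509 and 537 CPM in the early and 3899, 2744, 1644 and 1832 CPM in the late libraries (log2 change 2.03), with a late level split by replicate number rather than by siRNA.

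The promoters of the respiratory chain genes are shown because the family moved together. RefSeq gives 69 windows of 300 bases (250 before to 50 after a gene start, build GRCm38.p6) for 64 of the tested subunits. NRF1 is a transcription factor known for acting on respiratory chain genes. Its core motif, GCGCA and GCGC with any 1 base between, was searched on both strands. It was chosen after the family's values were seen, and was found in 18 of these windows (26.1%), against 4.6% of 32851 windows of all genes and 11.1% of the 9958 windows of genes tested here. Ndufb4 of complex I (log2 change 0.696) and Sdhd of complex II (0.87) hold it, in capitals in these windows, 5′ to 3′ on the gene's strand. Ndufb4 holds 3 matches and Sdhd 1.
Ndufb4, chr16:37654319-37654618, minus strand: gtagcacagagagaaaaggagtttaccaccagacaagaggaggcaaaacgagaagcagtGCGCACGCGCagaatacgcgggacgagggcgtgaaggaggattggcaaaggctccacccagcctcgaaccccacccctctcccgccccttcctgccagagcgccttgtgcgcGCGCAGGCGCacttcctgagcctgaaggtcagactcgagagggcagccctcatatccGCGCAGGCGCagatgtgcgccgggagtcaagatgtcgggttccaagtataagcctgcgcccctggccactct
Sdhd, chr9:50603800-50604099, minus strand: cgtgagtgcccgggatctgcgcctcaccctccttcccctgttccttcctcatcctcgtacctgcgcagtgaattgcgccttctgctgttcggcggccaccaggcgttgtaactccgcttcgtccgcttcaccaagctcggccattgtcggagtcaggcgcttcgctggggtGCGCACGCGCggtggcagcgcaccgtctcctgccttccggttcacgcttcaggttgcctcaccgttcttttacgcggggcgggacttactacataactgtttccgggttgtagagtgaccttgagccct

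Genes of the integrated stress response, which Atf4 controls when amino acids are short or proteins misfold, rose in 14 of 26 cases and fell in 4 (12 and 6 after TMM scaling). Atf4 itself went from 139 ± 9.697 to 240.04 ± 40.3 CPM (log2 change 0.75). Asns, asparagine synthetase (chromosome 6, 7675169 to 7693254, minus strand), stood at 29.02, 21.2, 28.2 and 26.7 CPM in the early and 149, 64.2, 166 and 83.5 CPM in the late libraries (log2 change 1.91, SE 0.17, adjusted p = 1.00e-05). Both late Tdgf1 siRNA libraries were below both late controls for this gene. Nupr1, a small stress-induced nuclear protein, stood at 2.48, 2.22, 1.31 and 0.536 CPM in the early and 34.9, 1.66, 25.2 and 31.3 CPM in the late libraries, where late Tdgf1 siRNA replicate 1 lay inside the early range (log2 change 2.04, SE 0.46, adjusted p = 0.00349, and a log2 change of 2.703 without that library). Aldh18a1, of proline synthesis, stood at 5.29, 5.25, 1.38 and 4.29 CPM in the early and 40.1, 13.7, 36.02 and 28.9 CPM in the late libraries (log2 change 2.08), again with that library the lowest late one. Ddit3, or Chop, and Trib3, both Atf4 targets, rose by 1.38 and 1.47, and the proline enzyme Pycr1 by 0.97. Of the serine and cysteine synthesis genes of the list Psat1, Cth and Phgdh fell and Psph rose. Psat1 stood at 511, 646, 793 and 729.7 CPM in the early and 299, 242, 211 and 182 CPM in the late libraries (log2 change -1.51, SE 0.17, adjusted p = 3.17e-05), Cth fell by 1.45 on the log2 scale (-1.45), and the translation repressor Eif4ebp1 by 0.71 (-0.71). Phgdh, the first step of serine synthesis, fell by 0.32 (-0.32), a call lost without early control replicate 1, early Tdgf1 siRNA replicate 2 or late control replicate 1 (adjusted p 0.00812 to 0.0665 with 1 library left out). Psph, the last step, rose by 0.41, a call lost after TMM scaling (adjusted p = 0.153), and likewise a call lost without early control replicate 2, late control replicate 1, late control replicate 2 or late Tdgf1 siRNA replicate 2 (adjusted p 0.0156 to 0.0914 with 1 library left out).

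**Figure D4:**
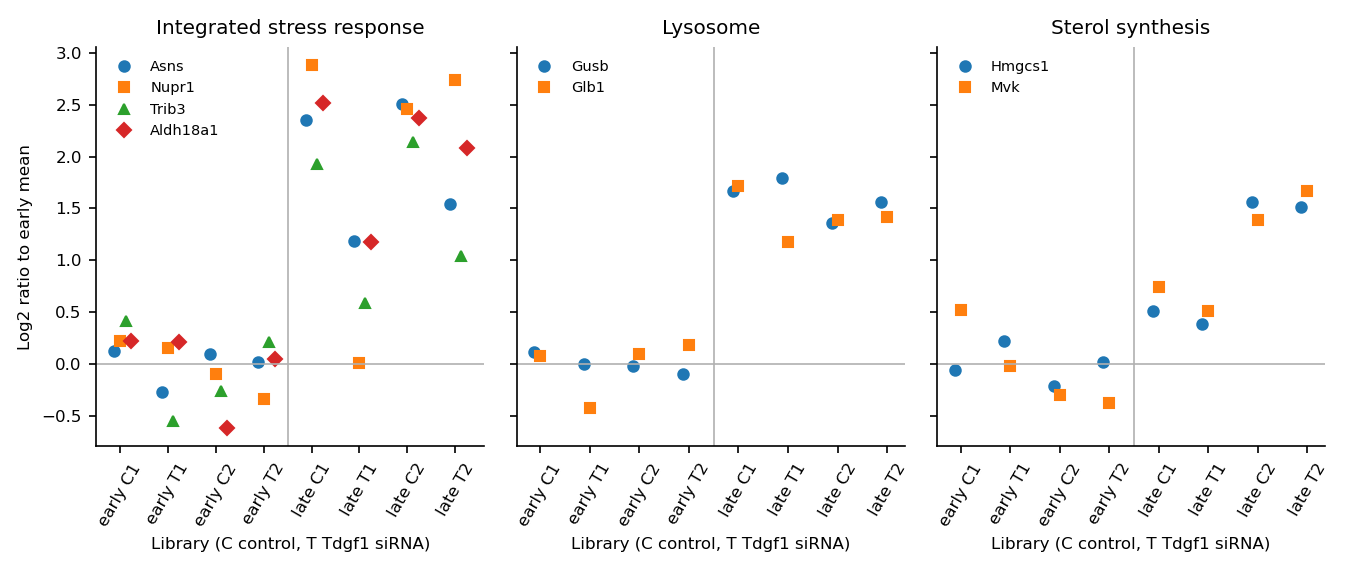
Levels per library of 8 genes of the integrated stress response, lysosome and sterol synthesis, as log2 of the ratio to the mean of the 4 early libraries after adding 1 deposited unit to each (vertical axis). Each marker type is 1 gene and each position 1 library (horizontal axis, C control, T Tdgf1 siRNA). Late Tdgf1 siRNA replicate 1 is the lowest late library for Asns, Nupr1, Trib3 and Aldh18a1, and the sterol genes Hmgcs1 and Mvk are higher in the late replicate 2 libraries.

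A core of the amino acid response element to which Atf4 binds, TGATGNAA, was searched on both strands in the RefSeq windows of this list. It was found in 6 of 24 windows (25.0%), of 22 of the 26 genes tested, against 3.97% of all windows and 2.09% of those of genes tested here. The 6 genes were Asns, Herpud1, Nupr1, Pycr1, Trib3 and Vldlr, of which every one rose, and 14 of the 26 genes tested rose in all. The list holds genes taken to be under Atf4 control and was chosen with earlier results known, so the share is no test of Atf4. The windows of Asns, Nupr1 and Trib3 are shown with the motif in capitals.
Asns, chr6:7693160-7693459, minus strand: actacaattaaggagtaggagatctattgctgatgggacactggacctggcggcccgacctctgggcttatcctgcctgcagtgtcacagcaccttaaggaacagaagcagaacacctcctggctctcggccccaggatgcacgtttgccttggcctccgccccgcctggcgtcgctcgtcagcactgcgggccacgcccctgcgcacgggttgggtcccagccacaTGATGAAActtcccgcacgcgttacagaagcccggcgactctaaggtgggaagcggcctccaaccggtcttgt
Nupr1, chr7:126625421-126625720, minus strand: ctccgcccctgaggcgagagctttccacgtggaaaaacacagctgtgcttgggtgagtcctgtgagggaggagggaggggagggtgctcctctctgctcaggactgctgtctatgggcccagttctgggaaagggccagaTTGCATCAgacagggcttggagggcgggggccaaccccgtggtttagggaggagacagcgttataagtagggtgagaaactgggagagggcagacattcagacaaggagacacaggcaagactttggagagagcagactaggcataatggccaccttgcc
Trib3, chr2:152344011-152344310, minus strand: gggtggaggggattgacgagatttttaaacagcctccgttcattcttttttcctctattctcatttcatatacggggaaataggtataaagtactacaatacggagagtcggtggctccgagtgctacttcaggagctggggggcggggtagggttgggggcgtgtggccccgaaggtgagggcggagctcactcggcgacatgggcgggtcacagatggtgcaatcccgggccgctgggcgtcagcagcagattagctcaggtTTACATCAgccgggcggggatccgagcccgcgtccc
The match is a description of the letters, and binding there was not measured.

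Among chaperones of the endoplasmic reticulum 8 of 26 rose and 1 fell, beside the 29.2% and 18.2% of all genes. The counts were 2 and 2 after TMM scaling, 5 and 0 without late Tdgf1 siRNA replicate 1, and 9 and 0 with the early replicate 1 libraries alone. Averaging same-numbered arms left 3 rises and 0 falls. Hspa5, the main chaperone (BiP), stood at 520.5 ± 112 to 504 ± 53.4 CPM without a call (log2 change -0.03, SE 0.14, adjusted p = 0.893). Dnajc3, Pdia6 and Sel1l had the largest log2 changes, 0.65, 0.598 and 0.56, of which that of Pdia6 was lost after TMM scaling. Dnajb9 fell (-0.61), a call lost without early control replicate 2, early Tdgf1 siRNA replicate 2, late Tdgf1 siRNA replicate 1 or late control replicate 2 (adjusted p 0.00442 to 0.0872 with 1 library left out).

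Lysosome genes rose in 20 of 37 cases and fell in 8 (15 and 9 after TMM scaling). Sugar-cleaving enzymes were among the largest rises. Gusb, the beta-glucuronidase, stood at 18.8, 17.1, 16.8 and 15.7 CPM in the early and 62.1, 68.3, 49.5 and 57.5 CPM in the late libraries (log2 change 1.599, SE 0.14, adjusted p = 7.44e-06), and Glb1, the beta-galactosidase, went from 50.5 ± 9.41 to 143 ± 23.4 CPM (log2 change 1.44). The protease Ctsl went from 251 ± 69.6 to 416 ± 67.2 CPM (0.75). The autophagy receptor Sqstm1 stood at 460.4, 507, 441 and 362 CPM in the early and 124, 161, 159 and 154 CPM in the late libraries (log2 change -1.54, SE 0.13, adjusted p = 5.55e-06), and Gaa, which cleaves glycogen, and the membrane protein Lamp2 fell by 1.07 and 0.86 on the log2 scale. The motif CACGTG, the E-box core that Tfeb binds in lysosome genes, was found in 10 of 36 windows of 29 genes of the list (27.8%), against 7.15% of all windows and 10.6% of those of genes tested here. It is a palindrome, so both strands give the same matches. Members holding it moved both ways, with Glb1 and Ctsl among the rises and Gaa among the falls, and the window of Glb1 is shown with the motif in capitals.
Glb1, chr9:114400828-114401127, plus strand: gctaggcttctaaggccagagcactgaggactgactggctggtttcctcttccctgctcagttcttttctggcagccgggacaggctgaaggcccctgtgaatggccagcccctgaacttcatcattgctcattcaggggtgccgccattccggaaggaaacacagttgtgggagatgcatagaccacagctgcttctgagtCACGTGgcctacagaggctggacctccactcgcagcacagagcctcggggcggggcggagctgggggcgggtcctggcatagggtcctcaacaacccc

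The GATA motif, searched on both strands as AGATAA and the same letters with T in front, G at the end or both, was found in 2 of 22 windows of the primitive endoderm list (9.09%) and in 1 of 21 of the basement membrane list (4.76%), against 29.8% of all windows and 18.3% of those of genes tested here. These letters are thus not in most of these windows, which says nothing about sites elsewhere.

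Genes of carbohydrate and lipid metabolism moved in both directions within each pathway, as all genes did (29.2% rose and 18.2% fell, or 21.9% and 25.9% after TMM scaling). In glycolysis and pyruvate use 13 of 25 rose and 7 fell (8 and 8 after TMM scaling). The 2 main hexokinases moved in opposite directions: Hk2 stood at 122, 128, 48.1 and 61.2 CPM in the early and 342, 256, 273 and 258 CPM in the late libraries (log2 change 1.72, SE 0.26, adjusted p = 3.08e-04) and Hk1 at 18.4, 16.3, 23.3 and 28.9 CPM in the early and 6.42, 6.81, 3.47 and 4.06 CPM in the late libraries (log2 change -1.52, SE 0.201, adjusted p = 1.09e-04). The triosephosphate isomerase Tpi1 stood at 183, 103, 90.6 and 67.7 CPM in the early and 542, 373, 403 and 428 CPM in the late libraries (log2 change 2.02), and Pfkm rose by 1.15. Pgam1 fell from 429 ± 30.2 to 208 ± 14.8 CPM (-1.03) and Mpc1, a subunit of the mitochondrial pyruvate carrier, from 414 ± 23.7 to 220.3 ± 29.02 CPM (-0.91).

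In sterol and fatty acid synthesis 7 of 33 rose and 1 fell (3 and 1 after TMM scaling), beside the 29.2% and 18.2% of all genes. The rises were 4 against the early replicate 1 libraries alone and 13 without late Tdgf1 siRNA replicate 1. The list turned with the replicate number: 1 rose and 8 fell between the replicate 1 libraries of both stages, and 24 rose and 1 fell between those of replicate 2. Hmgcs1, which starts the pathway, stood at 76.7, 94.4, 68.6 and 81.3 CPM in the early and 116, 106, 244 and 235 CPM in the late libraries (log2 change 1.001). Its late libraries split by replicate number, with replicate 2 higher. Mvk, the mevalonate kinase, stood at 32.8, 21.5, 17.1 and 15.9 CPM in the early and 38.96, 32.6, 63.2 and 77.2 CPM in the late libraries (1.12), with the same split. The desaturase Scd2 fell, at 278, 337, 253 and 295 CPM in the early and 96.3, 122, 203 and 244 CPM in the late libraries (-0.88).

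Among genes of lipid binding and storage 8 of 15 rose and 4 fell (6 and 4 after TMM scaling), beside the 29.2% and 18.2% of all genes. Fabp3, a fatty acid binding protein and an abundant transcript, stood at 1812, 1186, 1241 and 1119.7 CPM in the early and 5686, 3733, 5695 and 6257 CPM in the late libraries (log2 change 1.99, SE 0.17, adjusted p = 6.29e-06). Apoa1, of high-density lipoprotein, went from 6.32 ± 3.18 to 53.5 ± 17.9 CPM (log2 change 2.53) and the lipase Lpl from 1.91 ± 0.698 to 19.8 ± 4.198 CPM (2.08). Acsl4 (-1.59), Pla2g16 (-1.31) and Dgat2, of triglyceride synthesis (-1.11), fell. Among antioxidant and hypoxia genes 12 of 30 rose and 5 fell, beside the 29.2% and 18.2% of all genes. After TMM scaling 8 rose and 7 fell, beside 21.9% and 25.9%. Besides Ndrg1, the glutathione transferase Gsta4 (1.55) and the growth factor Vegfa (1.29) rose most. Gclm, which helps to make glutathione, stood at 127, 140.5, 104 and 97.1 CPM in the early and 29.3, 39.7, 36.9 and 32.9 CPM in the late libraries (log2 change -1.65, SE 0.14, adjusted p = 7.88e-06), and Vhl, which marks hypoxia-inducible factors for breakdown (-0.85), and the peroxiredoxin Prdx6 (-0.79) fell.

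Cell cycle genes were lower in late embryos more often than higher. Among all genes 18.2% fell and 29.2% rose, or 25.9% and 21.9% after TMM scaling. In the G1/S and replication list 10 of 37 fell and 6 rose (15 and 5 after TMM scaling, 8 and 3 with the early replicate 1 libraries alone), and in the G2/M list 14 of 34 fell and 7 rose (15 and 3, and 14 and 4, with 4 rises without late Tdgf1 siRNA replicate 1). Averaging same-numbered arms left 6 falls and 3 rises in the G1/S list and 7 and 2 in the G2/M list, beside 1198 and 2066 of all genes. Ccne1, cyclin E, stood at 86.5, 71.3, 157 and 145 CPM in the early and 39.2, 51.5, 45.7 and 48.98 CPM in the late libraries (log2 change -1.18), with higher early levels in replicate 2. Rrm2, which makes deoxynucleotides, went from 587 ± 81.5 to 305 ± 29.5 CPM (-0.93) and Ccnd3 from 272 ± 95.3 to 142 ± 28.5 CPM (-0.87). Cdk1, the kinase of mitosis, went from 332 ± 92.98 to 185 ± 16.1 CPM (-0.797), its partner Ccnb1 from 699 ± 149.7 to 459.7 ± 37.2 CPM (-0.58) and Plk1 from 104 ± 11.8 to 68.5 ± 11.4 CPM (-0.59). Anln, or anillin, which acts in cytokinesis, went the other way and stood at 145, 122, 128 and 126 CPM in the early and 249.6, 263, 248 and 235 CPM in the late libraries (log2 change 0.92, SE 0.097, adjusted p = 2.43e-05), and Hmmr and Mki67 rose by 0.54 and 0.49. Cenpf rose by 0.56, a call lost after TMM scaling (adjusted p = 0.0732), and with 1 library left out the log2 change was 0.33 to 0.72, a call lost without any 1 library other than early control replicate 1, early Tdgf1 siRNA replicate 1 or late control replicate 1 (adjusted p 0.00473 to 0.0785 with 1 library left out). Gins2, Cdk6 and Uhrf1 rose by 0.75, 0.72 and 0.62.

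Among p53 targets and arrest genes 9 of 25 rose and 2 fell (6 and 5 after TMM scaling), beside the 29.2% and 18.2% of all genes. Btg2 (1.39), Phlda3 (1.104) and Zmat3 (0.94) rose most, and in each of these late Tdgf1 siRNA replicate 1 held more than the mean of the late libraries. Trp53 itself fell (-0.54), as did Plk3 (-0.56). Cdkn1a, which encodes the arrest protein p21, varied within stages, at 92.8, 82.8, 171 and 125 CPM in the early and 62.2, 123, 78.8 and 126 CPM in the late libraries, and did not pass (log2 change -0.27, SE 0.24, adjusted p = 0.383). Its early level was higher in replicate 2, against which it was called lower (log2 change -0.62, adjusted p = 0.0257), and the change against replicate 1 was 0.09. In the Bcl2 family, which sets the threshold of cell death, 3 of 14 rose and 4 fell (2 and 6 after TMM scaling), beside the 29.2% and 18.2% of all genes. The death-promoting Pmaip1, or Noxa (0.75), the survival gene Bcl2l2 (0.68) and Bok (0.42, lost after TMM scaling and without late Tdgf1 siRNA replicate 2, adjusted p = 0.0554) rose. Bnip3l, a mitophagy receptor, stood at 469, 444, 513 and 526 CPM in the early and 216, 248, 222 and 212 CPM in the late libraries (log2 change -1.11, SE 0.101, adjusted p = 9.94e-06), and Bcl2l14 and the death-promoting Bcl2l11, or Bim, fell by 0.93 and 0.76 on the log2 scale.

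Most maternal transcripts on the list lay below the filter, and those tested moved in both directions. Of 35 listed, 26 lay below the filter. Of the 9 maternal transcripts tested 3 fell and 2 rose (4 and 2 after TMM scaling), beside the 18.2% and 29.2% of all genes. Dppa3, or Stella, which guards methylation in the early embryo, was abundant and stood at 3097, 3020.2, 5401 and 4902 CPM in the early and 970.4, 1745, 1085 and 945 CPM in the late libraries (log2 change -1.79, SE 0.23, adjusted p = 9.21e-05). Khdc3, of the subcortical maternal complex, went from 667 ± 68.2 to 454 ± 24.9 CPM (-0.55) and Padi6 from 10.1 ± 2.19 to 4.07 ± 0.708 CPM (-0.83), while Ooep, of the same complex, rose from 48.3 ± 10.3 to 81.5 ± 10.4 CPM (0.73), as did Tcl1 (1.45). Nlrp5, a further member of the complex, lay below the filter at no more than 0.827 CPM in any of the 8 libraries. Of 19 transcripts of the 2-cell stage with values, 15 lay below the filter. Of the 4 tested Sp110 (-1.51) and B020004J07Rik (-0.99) fell and 0 rose.

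The DNA methylation machinery gave 11 rises and 3 falls among 19 (9 and 3 after TMM scaling). Mbd2, which binds methylated DNA, went from 11.04 ± 3.298 to 39.3 ± 5.56 CPM (1.57) and Uhrf2 from 8.45 ± 1.72 to 27.01 ± 3.32 CPM (1.35). The maintenance enzyme Dnmt1 did not pass (log2 change 0.26, SE 0.15, adjusted p = 0.174). Tet2 fell (-0.46), a call lost without any 1 library other than early control replicate 2, early Tdgf1 siRNA replicate 2 or late Tdgf1 siRNA replicate 1 (adjusted p 0.00399 to 0.144 with 1 library left out). Mbd4 fell (-0.397), a call lost without any 1 library other than early Tdgf1 siRNA replicate 2 (adjusted p 0.0305 to 0.0933 with 1 library left out). Among imprinted genes 6 of 20 rose and 4 fell (6 and 5 after TMM scaling), shares near the 29.2% and 18.2% of all genes. Igf2, a paternally expressed growth factor, stood at 1.16, 3.1999, 1.09 and 0.765 CPM in the early and 13.4, 5.15, 8.18 and 18.7 CPM in the late libraries (log2 change 1.47). Sfmbt2 (1.37) and Slc38a4 (1.23) rose, and Impact (-0.97), Zrsr1 (-0.63) and Snrpn (-0.53) fell. H19, a maternally expressed RNA, lay below the filter and was not tested. It stood at 0, 0.164, 0 and 0 CPM in the early and 6.33, 2.27, 5.94 and 12.9 CPM in the late libraries, higher in every late library than in any early one. Among replacement and linker histones, H1f0, the linker histone of differentiated cells, stood at 26.2, 38.7, 38.9 and 41.03 CPM in the early and 76.5, 74.7, 88.2 and 87.9 CPM in the late libraries (log2 change 1.12, SE 0.14, adjusted p = 8.97e-05), H1fx and H2afy rose by 0.93 and 0.85, and H2afx (-0.56) and H3f3a (-0.52) fell. Of these histones 3 of 14 rose and 2 fell (3 and 2 after TMM scaling, and 1 fall with the early replicate 1 libraries alone), beside the 29.2% and 18.2% of all genes.

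Of 7 Pramel genes, a family of the preimplantation embryo with near-identical copies among which reads may be split, Pramel4 (-1.47), Pramel5 (-0.83) and Pramel6 (-0.56) fell, and Pramel7 rose (0.47, a call lost after TMM scaling), with 2 rises with the early replicate 1 libraries alone. Rab genes, which direct membrane traffic, rose in 11 and fell in 5 of 41 cases (9 and 7 after TMM scaling, 3 falls without late Tdgf1 siRNA replicate 1, and 6 and 7 between the replicate 1 libraries of both stages), to be read against the 29.2% and 18.2% of all genes. Rab13 (1.14), Rab25 (1.11) and Rab15 (1.100) rose most, and Rab29, at 55.6, 60.6, 55.3 and 57.7 CPM in the early and 26.1, 27.2, 23.99 and 27.4 CPM in the late libraries (log2 change -1.03, SE 0.12, adjusted p = 3.59e-05), and Rab38 (-0.96) fell most. Among 11 genes with integrin symbols 5 rose and 4 fell (3 and 4 after TMM scaling, and 3 rises with the early replicate 1 libraries alone), a group that includes Itgb3bp (0.64) and Itgb1bp1 (-0.91), which are not integrins. The laminin receptor chain Itga6 went from 40.2 ± 9.704 to 70.9 ± 14.1 CPM (0.78), the fibronectin receptor chain Itga5 rose by 0.71, and Itgb7 (-0.98) and Itgae (-0.67) fell. The call of Itgae was among the fragile ones, a call lost without early control replicate 2, early Tdgf1 siRNA replicate 2, late control replicate 2 or late Tdgf1 siRNA replicate 2 (adjusted p 0.0137 to 0.108 with 1 library left out).

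The stage change was also fitted in each siRNA arm. In control embryos 2875 genes changed, 1794 upward and 1081 downward, and in Tdgf1 siRNA embryos 1964, 1334 upward and 630 downward, with 2 libraries per stage in each arm. The number of calls does not show that the arms differ. In the test of the difference itself, the interaction of stage and siRNA, 0 of 10762 genes (0%) passed in limma, with 132 at an unadjusted p under 0.05. edgeR and DESeq2 also called 0, with 164 and 155 genes at an unadjusted p under 0.05. The 5 genes with the smallest interaction p were Hspb1, Gm4222, Hmcn2, Gm8399 and Eng. Hspb1, a small heat shock protein, stood at 117, 46.7, 73.3 and 67.3 CPM in the early and 52.5, 94.8, 65.2 and 96.5 CPM in the late libraries (interaction 1.37 on the log2 scale, Tdgf1 siRNA minus control). Eng, a TGF-beta co-receptor, stood at 4.299, 2.79, 5.66 and 2.99 CPM in the early and 4.68, 13.8, 3.86 and 8.03 CPM in the late libraries (interaction 1.26). Hmcn2 and the gene models Gm8399 and Gm4222 had interactions of 1.46, 1.41 and -1.07. All 5 had an adjusted p of 1 in limma, so no gene's stage change was shown to differ between the arms at this number of libraries.

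Beside the main values, the morula means of the leading genes were 6.29 ± 3.17 CPM for Tmsb4x, 1.51 ± 0.655 CPM for Plac1, 0.06602 ± 0.0831 CPM for Sox17, 399.7 ± 117 CPM for Nanog, 263 ± 24.6 CPM for Pou5f1 and 325 ± 13.7 CPM for Psmd3 (n = 4). The early blastocyst means of Nanog and Pou5f1 were 373 ± 63.5 and 378 ± 65.9 CPM. No test of the morula values was made here.

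Gene models with Gm or Rik names and pseudogenes made up 1151 of the genes tested, of which 286 rose and 196 fell, beside the 29.2% and 18.2% of all genes. The largest rises among them were Gm4926 (4.86), Gm16559 (3.72) and Gm10800 (3.62), and the largest falls Gm11517 (-3.69), Gm5745 (-3.63) and Gm5612 (-3.104), all as log2 changes. Gm10800 stood at 27.03, 24.3, 11.98 and 16.7 CPM in the early and 447, 452, 145 and 199.98 CPM in the late libraries, and like Lars2 its late level split by replicate number. By annotated gene type, 42 of 130 lincRNAs rose and 13 fell, while 8 of 151 processed pseudogenes rose and 47 fell, with median log2 changes of 0.24 and -0.25. Reads of processed pseudogenes may come from their parent genes.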

How the data were processed

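RNA-seq libraries of CD1 mouse embryos were made, per the labels, with the SMARTer Ultra Low Input and NEBNext Ultra DNA kits. Strand is not stated, so reads of overlapping or antisense genes cannot be told apart. HISAT2 2.1.0, Cufflinks, HTSeq and edgeR and the genome build mm10 are named, without their roles, in the submitters' processing notes. The deposited table covers 43472 genes and all 12 libraries, and its columns are called RPKM per the file headers. The authors' deposited values are however CPM divided by 3.582 in every column, made from whole reads: every value was a whole multiple of 1 step per library (100% whole within 0.01 reads), whatever the gene's length, so whole reads were recovered. The design had assumed the headed unit, and its log2 test suits CPM too.

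The 8 blastocyst libraries were fitted in R 4.3.3 with limma 3.58.1 (its trended empirical Bayes fit) on log2(value + 1), with stage and siRNA arm as terms, over 10762 genes whose mean reached 1 deposited unit, with 5 residual and 7.05 prior degrees of freedom, and Benjamini-Hochberg adjustment over all of them. The interaction fit had 4 and 6.92. Figures used Python 3.11.15 and matplotlib 3.10.9. On simulated reads for these genes the fit recovered 78% of genes changed by a log2 of 1 and 100% of those changed by 2, all with the right sign, and called 9 unchanged genes. The simulated libraries were independent of each other, with 100 genes changed at each size. These rates need not hold here, where same-numbered early libraries were alike and far more genes were called. The fits on recovered reads with edgeR 4.0.16 and DESeq2 1.42.0 called 5044 and 5274 genes.

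Libraries of 1 group differed by 20.7 to 49.7 in chi-square per gene, above read sampling noise, and none were merged. Deviations from group means correlated at 0.588 (early) and 0.099 (late) between same-numbered arms, and at 0.144 (control) and 0.014 (Tdgf1 siRNA) between same-numbered stages, so numbers were not taken to pair stages. Coordinates are 1-based from GENCODE release M21 (GRCm38), in which 39368 names (90.6%) matched, and promoter windows are from RefSeq, without chromosome 18.

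Genes were named by rule: the 12 largest rises and falls that passed without overlap and with at least 10 CPM at the higher stage, gene models apart, the 3 largest of each direction in each of 41 lists, 50 anchor genes and the 5 smallest interaction p-values. Some genes that this rule names are not reported here. Members and lists were chosen with earlier results of these data known. Further genes, named after their values were seen, were Atf4, Ddit3, Trib3, Pycr1, Phgdh, Psph, Zscan10, Dppa5a, Sall4, Herpud1, Ndufb4, Sdhd, Psma3, Psmb9, Psmd10, Plod1, Plod3, Pecam1 and the cell markers without a call. Alternatives were other pseudocounts, filters, scalings, tools and subsets of libraries. Of these, averaging the arms and taking the early libraries of 1 number alone were chosen after seeing the data, as was the interaction over all 12 libraries.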

Additional observations from a re-analysis of the deposited data

Results flagged for a closer look

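The 4 libraries of each stage were examined for 1 library standing far from the other 3 (a gap to the nearest of them, relative to the whole range, above Dixon's critical value), in each named gene. Of 528 such sets 17 met this, and chance alone would flag about 1 in 20. In early blastocysts, Tdgf1 siRNA replicate 1 held Col4a2 at 19.28 CPM (the others 8.93 to 10.2), Igf2 at 3.2 CPM (the others 0.765 to 1.16), Klf4 at 67.77 CPM (the others 38.6 to 40.1), Lpl at 2.954 CPM (the others 1.45 to 1.65) and Tcl1 at 8.205 CPM (the others 5.43 to 5.87). In late blastocysts, control replicate 2 held Ctsl at 516.9 CPM (the others 379 to 389), Gata3 at 399.2 CPM (the others 425 to 428), Llgl1 at 27.69 CPM (the others 38.7 to 40.8) and Ndufs4 at 167.3 CPM (the others 147 to 149). In early blastocysts, control replicate 1 held H1f0 at 26.21 CPM (the others 38.7 to 41.03), Ooep at 63.66 CPM (the others 42.6 to 43.7) and Wnt6 at 9.921 CPM (the others 5.66 to 6.15). In late blastocysts, control replicate 1 held Pecam1 at 19.89 CPM (the others 16.5 to 16.9) and Rpl41 at 1335 CPM (the others 1572 to 1599). In late blastocysts, Tdgf1 siRNA replicate 2 held Serpine2 at 70.16 CPM (the others 89.6 to 91.9). In late blastocysts, Tdgf1 siRNA replicate 1 held Slc2a8 at 64.94 CPM (the others 41.4 to 45.1). In early blastocysts, Tdgf1 siRNA replicate 2 held Wbp5 at 56.56 CPM (the others 13.6 to 19.04).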

How the results depend on the processing

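Beside 5103 genes changed, the fit with the arms averaged (same-numbered libraries of both arms as 1 sample, 2 against 2) called 3264, controls alone 2875 and Tdgf1 siRNA embryos alone 1964, all with fewer samples. The main fit counts same-numbered early libraries of both arms as separate samples. Their deviations correlated at 0.588, so its p-values may be too small and its count too high. Leaving out 1 library gave 4028 to 5230. The other alternatives stayed within 1.5 times. The replicate block gave 5534, ending the call of 0 and adding that of 3 of the 259 named genes, and 0 interactions, and its blocks pair numbers that the data did not show to be shared between stages. The interaction test gave 0 genes in every alternative.

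Of 241 named genes that passed, 160 kept direction and call in all of up to 26 alternatives, 81 lost the call in at least 1, and 0 reversed. The call was lost for 70 in Tdgf1 siRNA embryos alone, for 40 in controls alone, for 29 with the arms averaged (Bok, Capza1, Cenpf, Ctgf, Dab2, Dnajb9, Dppa5a, Dvl2, Esrrb, H3f3a, Itgae, Krt8, Llgl1, Mbd4, Mki67, Phgdh, Picalm, Plk3, Psph, Rab7, Rars, Sall4, Scd2, Slc2a8, Smad2, Sp110, Tead4, Tet2 and Uhrf1) and for 8 after TMM scaling. Log2 changes that changed sign, none of them called with all 8 libraries, were these. Cdkn1a turned from -0.2672 to 0.2821 in Tdgf1 siRNA embryos, 0.09005 with early replicate 1 alone, 0.001262 in replicate 1 of both stages, -0.4924 to 0.01314 with 1 library left out. Cdx2 turned from 0.09903 to -0.1118 in DESeq2, -0.06981 after TMM scaling, -0.5031 with early replicate 1 alone, -0.09953 in edgeR, -0.5353 in replicate 1 of both stages, -0.156 to 0.3437 with 1 library left out. Fgf4 turned from 0.04657 to -0.0262 in DESeq2, -0.06036 after TMM scaling, -0.07651 in Tdgf1 siRNA embryos, -0.02712 with early replicate 1 alone, -0.01003 in edgeR, -0.09551 in replicate 1 of both stages, -0.21 after quantile scaling, -0.02982 to 0.1722 with 1 library left out. Gata6 turned from -0.091 to 0.05444 in Tdgf1 siRNA embryos, 0.09729 in replicate 1 of both stages, -0.1617 to 1.542e-05 with 1 library left out. Hspa5 turned from -0.02683 to 0.1171 in Tdgf1 siRNA embryos, 0.2032 with early replicate 1 alone, 0.1811 in replicate 1 of both stages, 0.07015 after quantile scaling, -0.1441 to 0.09746 with 1 library left out. Pecam1 turned from 0.08319 to -0.02996 in DESeq2, -0.06041 after TMM scaling, -0.09209 with early replicate 1 alone, -0.01498 in edgeR, -0.05072 in replicate 1 of both stages, -0.1575 after quantile scaling, -0.02239 to 0.1741 with 1 library left out. Plod3 turned from -0.2461 to 0.009257 in Tdgf1 siRNA embryos. Psmd10 turned from -0.02612 to 0.006162 in Tdgf1 siRNA embryos, 0.03041 with early replicate 2 alone, 0.0726 in replicate 2 of both stages, -0.09474 to 0.0384 with 1 library left out. Sox2 turned from -0.1696 to 0.4345 with early replicate 2 alone, 0.3624 in replicate 2 of both stages, -0.4774 to 0.08463 with 1 library left out. Apart from scaling and fewer samples, the cause was not tested.

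With 4 libraries a stage, of unknown embryo number, small changes are the least certain, and the split of the early libraries by number is part of the spread. Levels near 3 reads (0.218 to 0.275 CPM) carry counting error of their own size.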
